A study of Homo sapiens with 6 samples.

Results

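The transcripts of 9 genes of the extracellular protease system were examined in UM-SCC1, an established human line from a squamous carcinoma of the head and neck: the matrix metalloproteinases MMP1, MMP9, MMP10 and MMP14, the plasminogen activators PLAU and PLAT, the urokinase receptor PLAUR, and the metalloproteinase inhibitors TIMP1 and TIMP2. They were taken by gene symbol, from a list drawn up with earlier results of these data known, and all 9 were among the 14959 genes with expression values. Mimics, which are short synthetic RNA duplexes that act as a mature miRNA, were introduced as miR-204-5p mimics or control mimics, and RNA was sequenced after 48 h. Each group holds 3 libraries from independent experiments in the same line. No parental or untransfected culture was analysed here, so each difference is between the 2 transfected groups, and the amount of miR-204-5p itself is not measured by these libraries.

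Matrix metalloproteinases are zinc endopeptidases that are made as inactive precursors and cut collagens, other matrix proteins and surface proteins. Most are secreted, whereas MMP14 is anchored in the plasma membrane. Urokinase (PLAU) and tissue-type activator (PLAT) convert plasminogen into plasmin, which degrades fibrin and activates several metalloproteinase precursors. PLAUR holds urokinase on the cell surface, and the TIMP proteins block metalloproteinases. In squamous carcinoma these genes are studied as part of the machinery by which tumor cells pass through matrix.

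The authors gave expression as FPKM, the fragments on a gene divided by a length for that gene and by the mapped fragments of the library. Depth is not given, and the step between low FPKM values in genes with 1 annotated transcript placed it at about 13100000 to 16400000 fragments per library. In all 6 libraries 11373 to 11543 genes reached 1 FPKM, and all 9 squamous epithelial markers examined, among them KRT5, KRT14 and TP63, had a mean of at least 1 FPKM. Under miR-204-5p mimics 5 of these markers were lower and 3 higher (adjusted p under 0.05, limma), with log2 fold changes from -1.01 for TP63 and DSG3 to 0.81 for KRT6A. By that test 16.8% of all genes were lower and 23.9% higher. Of 6 fibroblast markers 4 were measured, with a summed level of 9.81 to 11.6 FPKM under miR-204-5p mimics and 8.58 to 9.41 under control mimics, nearly all of it COL1A1, while LUM stayed below 0.1 FPKM. The 3 measured endothelial markers summed to 0.590 to 0.767 and 0.443 to 0.502 FPKM. The 6 leukocyte markers summed to 25.8 to 29.1 and 31.5 to 32.5 FPKM, led by CD14, CD68 and LYZ, with the pan-leukocyte gene PTPRC at 0.120 to 0.546 FPKM. The part of these marker levels in the results was not tested.

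The sequence of miR-204-5p (RefSeq, GRCh38.p14, chromosome 9, minus strand, 70810031 to 70810052) is shown because its seed, bases 2 to 8 in capitals, largely determines which mRNAs pair with it.
hsa-miR-204-5p: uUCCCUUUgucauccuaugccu

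Pairing with the full seed needs AAAGGGA in the mRNA (7mer-m8), an 8mer adds a final A, and a 7mer-A1 is AAGGGAA. GENCODE 29 gave each gene's 3'UTRs, and the longest was searched on the transcript strand. Of 14664 genes with a 3'UTR, 27.1% held a match of at least 7 bases, and 2 of the 9 protease genes did. The MMP9 match is a 7mer-m8 in exon 13, in the 3'UTR, at 46016471 to 46016477 of chromosome 20, plus strand. The TIMP2 match is a 7mer-A1 in exon 5, in the 3'UTR, at 78854563 to 78854569 of chromosome 17, minus strand. Both are printed along the transcript with the match in capitals.
MMP9: gttctggaggAAAGGGAggagtggagg
TIMP2: ccagcctaggAAGGGAAggattttgga

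MMP1 and PLAU held only a 6-base match, AAGGGA, and no match of 6 or more bases was found in MMP10, MMP14, PLAUR, PLAT or TIMP1. A match describes letters in an annotated 3'UTR and does not show that the site is used. Neither gene with a match of 7 bases was among the genes called below.

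Under miR-204-5p mimics, 4 of the 9 genes were lower with a limma adjusted p under 0.05 and 0 were higher. The 4 were MMP1, MMP14, MMP10 and PLAU, all of them proteases, with log2 fold changes from -1.26 to -0.20. By the same test 16.8% of all genes were called lower, 23.9% higher and 40.8% in either direction, and with quantile normalization the shares were 20.2% lower and 20.3% higher. The 9 genes had a median log2 fold change of -0.01, and all genes one of 0.03. Fold changes are differences of log2(FPKM + 1) between group means, a scale that understates changes of genes near or below 1 FPKM, where MMP9 and MMP10 lie. At an unadjusted p under 0.05 the limma counts were 4 lower and 1 higher, the last being PLAT. The values of the groups did not overlap in 5 of the 9 genes, against 53.6% of all genes, and did not overlap with lower values under miR-204-5p mimics in 4 of the 9, against 22.7% of all genes.

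**Figure D1:**
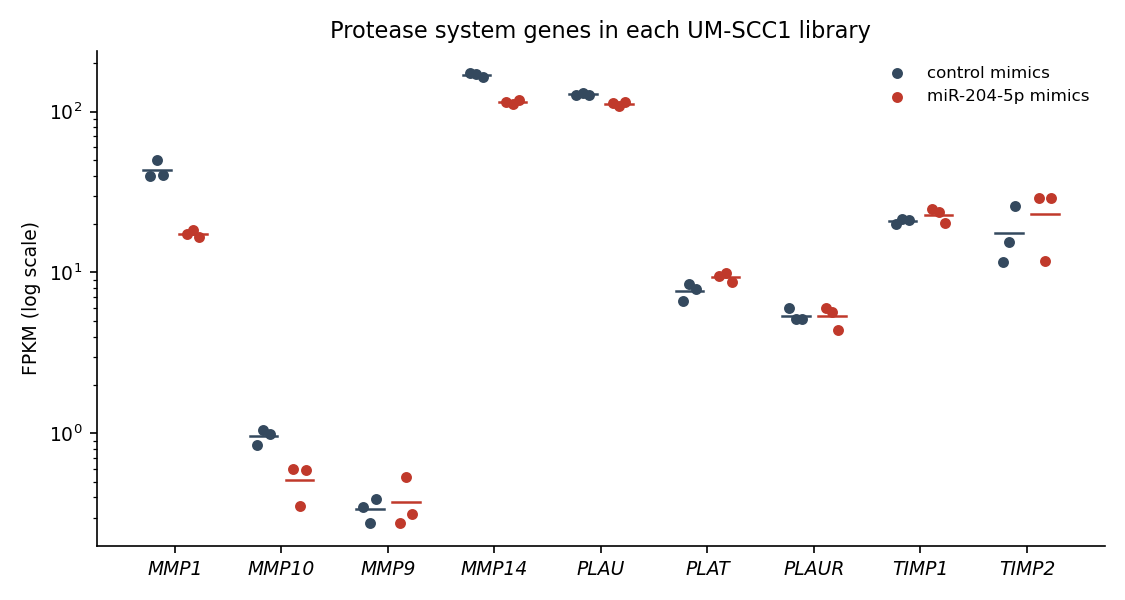
FPKM (log scale) of the 9 genes in each library, control mimics in blue and miR-204-5p mimics in red, with 1 point per library and a line at the group mean. For MMP1, MMP10, MMP14 and PLAU all 3 red points lie below all 3 blue points, for PLAT they lie above, and the points of MMP9, PLAUR, TIMP1 and TIMP2 overlapped.

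MMP1, interstitial collagenase, cuts the fibrillar collagens and spans 102789920 to 102798160 of chromosome 11 (hg38, minus strand), with 10 exons. Its FPKM was 17.4, 18.3 and 16.7 with miR-204-5p mimics against 39.7, 50.2 and 40.3 with control mimics. The highest treated library lay below the lowest control library, and the treated mean was 0.402 times the control mean. The log2 fold change was -1.26 (95% interval -1.49 to -1.03, adjusted p = 0.000200, limma), and 0.294% of all genes had a lower one. In bulk RNA, fewer cells that express a gene and less RNA per cell cannot be told apart.

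MMP14, the membrane-type enzyme that activates the precursor of MMP2, had the highest FPKM of the 9 genes. Its FPKM was 114, 111 and 118 with miR-204-5p mimics against 173, 172 and 164 with control mimics. The groups were far apart relative to their spread, with coefficients of variation of 3.12% and 2.78%, and the treated mean was 0.673 times the control mean. The log2 fold change was -0.57 (95% interval -0.66 to -0.47, adjusted p = 0.000163, limma). MMP14 spans 22836557 to 22847761 of chromosome 14, plus strand.

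MMP10, stromelysin-2, is known to cut proteoglycans and to activate other metalloproteinase precursors, and it neighbours MMP1 on chromosome 11, at 102770503 to 102780628, minus strand. It was scarce, at 0.601, 0.355 and 0.590 FPKM with miR-204-5p mimics against 0.853, 1.05 and 0.989 with control mimics. Every treated library was below every control library. At the inferred depth these levels correspond to about 9.9 to 28.5 fragments per library. The log2 fold change was -0.38 (95% interval -0.57 to -0.18, adjusted p = 0.0112, limma). With a pseudocount of 0.1 in place of 1 it was -0.81, and the ratio of the group means was 0.534.

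MMP9, gelatinase B, was the scarcest of the 9 genes. Its FPKM was 0.277, 0.537 and 0.314 with miR-204-5p mimics against 0.349, 0.277 and 0.391 with control mimics, or at most about 20.0 fragments per library. The groups overlapped, with miR-204-5p mimics replicate 2 above all control libraries, and the log2 fold change was 0.04 (95% interval -0.16 to 0.23, adjusted p = 0.758, limma). On the log2(FPKM + 1) scale these libraries leave differences within that interval possible, in either direction. With a pseudocount of 0.1 in place of 1 the log2 fold change was 0.09. Its standard error was then 0.238, against 0.0796 with 1, so the interval depends on the scale. An antisense gene, SLC12A5-AS1, overlaps MMP9.

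PLAU, urokinase, spans 73909177 to 73913049 of chromosome 10, plus strand. It had 112, 108 and 115 FPKM with miR-204-5p mimics against 127, 131 and 127 with control mimics. The difference was small but larger than the spread within either group, and the treated mean was 0.873 times the control mean. The log2 fold change was -0.20 (95% interval -0.28 to -0.11, adjusted p = 0.00631, limma). Of all genes 19.5% had a lower log2 fold change, so PLAU did not stand apart from genes in general. C10orf55 overlaps PLAU on the other strand at a mean of 4.07 and 3.89 FPKM. Whether the libraries kept strand is not given in the sources used here, so reads of the overlap cannot be assigned with certainty.

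PLAT, tissue-type plasminogen activator, had 9.45, 9.94 and 8.73 FPKM with miR-204-5p mimics against 6.66, 8.51 and 7.95 with control mimics. Every treated library was above every control library. The log2 fold change of 0.26 (95% interval 0.04 to 0.48 before adjustment) missed the threshold in limma (adjusted p = 0.0665). It passed when control mimics replicate 2 was left out (0.32, adjusted p = 0.0469, limma), while without control mimics replicate 1 it was 0.17 (adjusted p = 0.137, limma). PLAUR, the urokinase receptor, had 6.01, 5.72 and 4.40 FPKM with miR-204-5p mimics against 5.97, 5.10 and 5.12 with control mimics. Its groups overlapped, and the interval of the log2 fold change ran from -0.29 to 0.26 (adjusted p = 0.950, limma).

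TIMP1, a secreted inhibitor of most metalloproteinases, had 24.8, 23.6 and 20.2 FPKM with miR-204-5p mimics against 20.0, 21.3 and 21.1 with control mimics. The third library with miR-204-5p mimics lay within the control range and the other two lay above it. The log2 fold change was 0.12 (95% interval -0.06 to 0.31, adjusted p = 0.254, limma), and without miR-204-5p mimics replicate 3 it was 0.21 (adjusted p = 0.0255, limma), while without miR-204-5p mimics replicate 1 it was 0.07 (adjusted p = 0.547, limma). TIMP2, which binds MMP14 and takes part in the activation of MMP2 as well as inhibiting metalloproteinases, had 28.9, 11.7 and 28.9 FPKM against 11.6, 15.4 and 25.8. Its libraries differed by more than 2-fold within each group, with coefficients of variation of 42.8% and 41.5%. The interval of its log2 fold change, -0.63 to 1.32, leaves both directions possible (adjusted p = 0.540, limma), and leaving out 1 library at a time moved the value from 0.10 to 0.76. CEP295NL overlaps TIMP2 on the same strand at 0.298 and 0.353 FPKM, and SYN1 overlaps TIMP1 on the other strand at 0.00719 and 0.0334 FPKM.

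Ranked by mean FPKM, the control order was MMP14, PLAU, MMP1, TIMP1, TIMP2, PLAT, PLAUR, MMP10 and MMP9, and the only neighbours in it with overlapping libraries were TIMP1 and TIMP2. With miR-204-5p mimics the order was MMP14, PLAU, TIMP2, TIMP1, MMP1, PLAT, PLAUR, MMP10 and MMP9. MMP1 moved from above both inhibitors to a mean below both, though one TIMP2 library, at 11.7 FPKM, lay below it. MMP14 and PLAU, separate in the control libraries, overlapped after treatment, at 111 to 118 and 108 to 115 FPKM, as did MMP10 and MMP9. Levels between genes depend on the length by which each was divided. The length of the single transcript listed for a gene was not that divisor for MMP14, PLAU, PLAUR, PLAT, TIMP1 or TIMP2. For PLAU the listed transcript has 468 bases, while its 6 values fitted a divisor of 2805 bases. For TIMP1 and TIMP2 the values fitted the union of all annotated exons, 1541 and 5633 bases. A fixed divisor cancels in a ratio of group means, but not in a difference of log2(FPKM + 1), where it matters most for genes near or below 1 FPKM.

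Ratios of 2 genes in the same library do not depend on how libraries are scaled, and pairs of a protease with its inhibitor or receptor were compared. Of 6 pairs tested, 4 are given here. The FPKM ratio of MMP1 to TIMP1 was 0.701, 0.774 and 0.825 with miR-204-5p mimics against 1.98, 2.35 and 1.91 with control mimics. MMP1 was thus below TIMP1 in every treated library and above it in every control library. The difference in log2 ratio was -1.44 (exact permutation p = 0.1, two-sided and the lowest possible with 3 against 3 libraries, and 0.4 after Benjamini-Hochberg adjustment over the 6 pairs tested). The ratio of MMP14 to TIMP2 was 3.94, 9.43 and 4.07 against 14.9, 11.1 and 6.37, and these overlapped (exact permutation p = 0.2). Its difference in log2 ratio, -0.93, ran from -1.34 to -0.66 with 1 library left out at a time. PLAU to PLAUR differed by -0.18 in log2 ratio, with overlapping libraries (exact permutation p = 0.4), and the value ran from -0.34 to -0.10 with 1 library left out at a time. MMP9 to TIMP1 differed by -0.03 (exact permutation p = 1). None of the 4 pairs passed 0.05, which this design cannot reach.

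**Figure D2:**
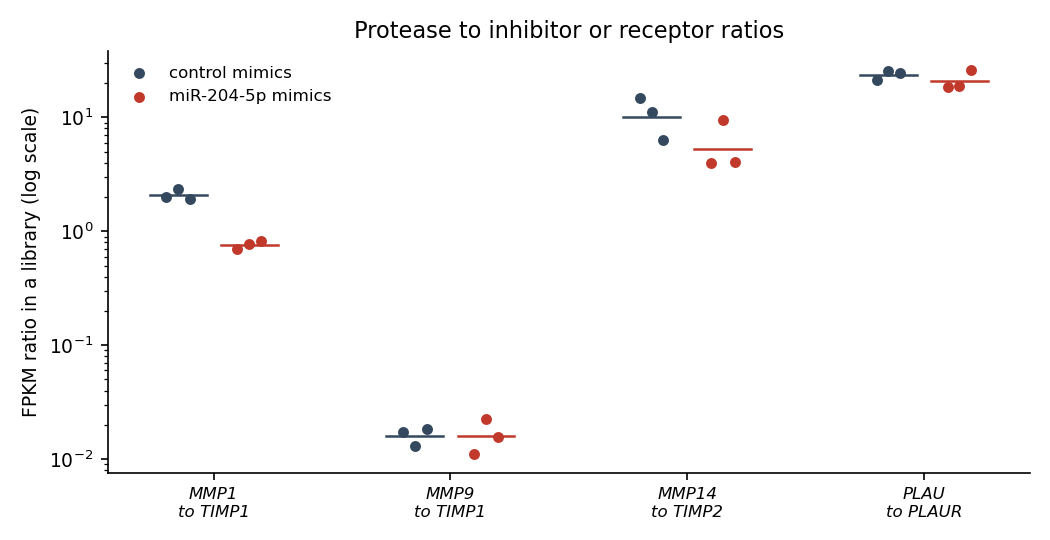
FPKM ratio of 2 genes in each library (log scale) for 4 pairs, control mimics in blue and miR-204-5p mimics in red, with a line at the geometric mean. Only MMP1 to TIMP1 had separate groups, at 0.701 to 0.825 with miR-204-5p mimics and 1.91 to 2.35 with control mimics.

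MMP1 and MMP10 belong to a run of metalloproteinase genes on chromosome 11, and the genes beside them were read from the table as well. MMP3, stromelysin-1, had 4.38, 3.82 and 3.61 FPKM with miR-204-5p mimics against 12.1, 12.1 and 13.2 with control mimics. Its log2 fold change of -1.45 (adjusted p = 6.98e-05, limma) was below that of MMP1, and 0.134% of all genes had a lower one. MMP12, macrophage elastase, fell from 6.75 ± 0.588 to 3.42 ± 0.664 FPKM (SD over n = 3, log2 fold change -0.82, adjusted p = 0.00236, limma). MMP13, collagenase-3, was low throughout and fell from 1.21 ± 0.0471 to 0.420 ± 0.0868 FPKM (SD over n = 3, adjusted p = 0.000440, limma), with a log2 fold change of -0.64 that became -1.35 with a pseudocount of 0.1. MMP7 and MMP8, farther along the run, were not called, at log2 fold changes of -0.03 and 0.00 and mean levels below 0.5 FPKM. MMP1, MMP3 and MMP10 each overlap the pseudogene WTAPP1 on the other strand.

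The other genes of the table within 1 Mb of MMP1 were added after the values had been seen. Among the 16 genes in that window, MMP10, MMP1, MMP3, MMP12 and MMP13 were consecutive, at -19.4 to 153.1 kb from the listed start of MMP1, and had the 5 lowest log2 fold changes of those called. Beyond them DCUN1D5 was lower by less (log2 fold change -0.19), and DYNC2H1, TMEM123, YAP1, BIRC3, CFAP300 and CEP126 were higher, with log2 fold changes from 0.33 to 1.25. BIRC2 had a log2 fold change of -0.53 that was not called (adjusted p = 0.120, limma).

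**Figure D3:**
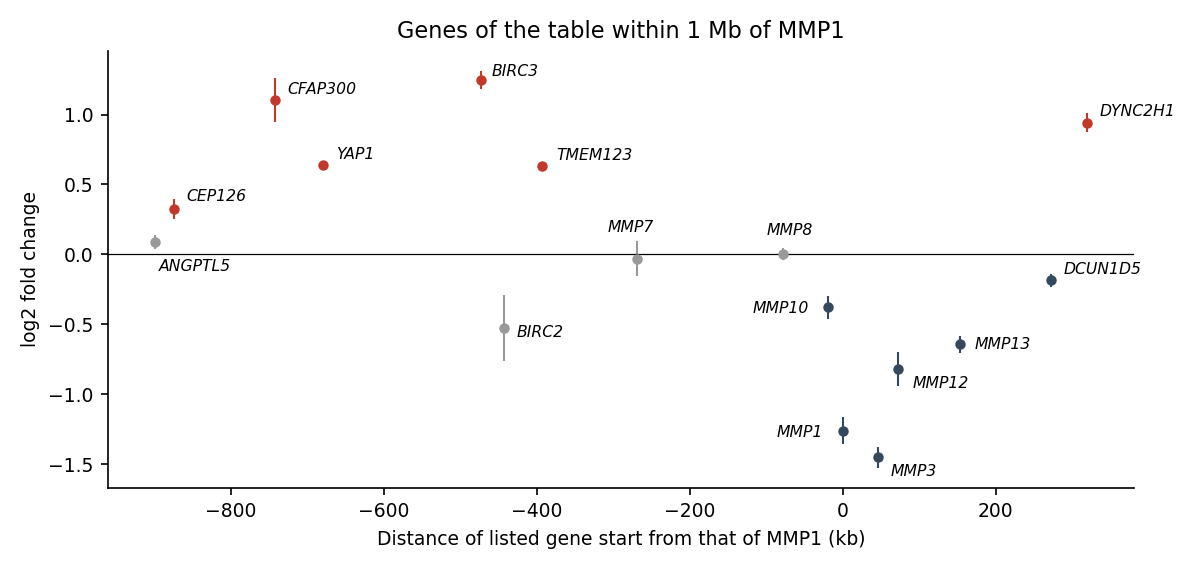
Log2 fold change (miR-204-5p mimics minus control mimics, log2(FPKM + 1) scale, bars of 1 standard error) of the 16 genes of the table within 1 Mb of MMP1, against the distance of the listed start from that of MMP1 in kb. Blue genes were called lower, red genes higher and grey genes not called. The adjacent genes MMP10 to MMP13 lie below 0, between -0.38 and -1.45, with called genes above 0 on both sides.

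Of the genes in that run, MMP3 and MMP13 hold a 7mer-A1 to miR-204-5p in the 3'UTR, and MMP12 holds no match of 6 bases. Both sites are in exon 10, at 102835999 to 102836005 for MMP3 and 102943115 to 102943121 for MMP13, on chromosome 11, minus strand. They are printed along the transcript with the match in capitals, because these genes fell with MMP1 and MMP10, which lack one.
MMP3: agtcacactcAAGGGAActtgagcgtg
MMP13: atcggccatcAAGGGAAgaactattgt

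Of a list of 67 further genes of the system, 54 were in the table. By limma's adjusted p under 0.05, 15 of the 54 were lower and 12 higher, where 16.8% and 23.9% of all genes were, with a median log2 fold change of -0.03 against 0.03 for all genes. Among the other metalloproteinases 4 of 14 were lower and 2 higher. The groups of the list are small and are described by their counts, to be read against those shares of all genes. The lower ones were MMP3, MMP12, MMP13 and MMP16, the last a membrane-type enzyme (1.81 ± 0.0793 to 1.31 ± 0.0460 FPKM, SD over n = 3, log2 fold change -0.28, adjusted p = 0.00678, limma). MMP25, also anchored in the membrane, and MMP28, epilysin, were higher, with log2 fold changes of 0.30 and 0.37 (adjusted p = 0.0108 and 0.00228, limma). MMP16 had the most seed matches of the list, with 4 8mers in a 3'UTR of 9452 bases. Of the other inhibitors, TIMP3 had 32.8, 30.6 and 32.6 FPKM against 34.6, 34.3 and 34.8, separate groups with a log2 fold change of -0.11 that was not called (adjusted p = 0.0635, limma) but passed after scaling to equal medians or quantile normalization (adjusted p = 0.0382 and 0.0394, limma). RECK, a membrane-anchored inhibitor, did not pass (log2 fold change -0.02, adjusted p = 0.883, limma).

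On the plasminogen side, 3 of 12 measured genes were higher and 3 lower, against 23.9% and 16.8% of all genes, so the share called higher was near that of all genes. PLGRKT, a transmembrane plasminogen receptor, was at 14.1 ± 0.990 FPKM with miR-204-5p mimics against 7.07 ± 0.896 with control mimics (SD over n = 3, log2 fold change 0.91, adjusted p = 0.000610, limma). S100A10, whose protein binds plasminogen in a complex with annexin A2, rose from 106 ± 4.59 to 169 ± 11.4 FPKM (SD over n = 3, log2 fold change 0.67, adjusted p = 0.000345, limma). ANXA2, which encodes annexin A2, rose from 90.7 ± 8.34 to 122 ± 8.83 FPKM (log2 fold change 0.43, adjusted p = 0.00678, limma). The groups did not overlap in any of the 3, as was so for 53.6% of all genes. ENO1, a glycolytic enzyme that can also bind plasminogen at the surface, was lower (log2 fold change -0.22, adjusted p = 0.00884, limma). LRP1, a large endocytic receptor of the cell surface, fell from 16.3 ± 2.21 to 9.87 ± 0.758 FPKM (SD over n = 3, log2 fold change -0.67, adjusted p = 0.00321, limma), and THBD, thrombomodulin, from 11.5 ± 1.68 to 7.07 ± 0.135 (log2 fold change -0.63, adjusted p = 0.00296, limma).

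SERPINB2, an inhibitor of plasminogen activators, stayed at 0.596 to 0.885 FPKM in all libraries and was not called (adjusted p = 0.579, limma). MMP2 and PLG were not among the genes with expression values.

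Among the membrane serine proteases and their inhibitors 1 of 6 measured genes was called, as lower. By the same test 40.8% of all genes were called in either direction and 16.8% lower. ST14, matriptase, a membrane protease that can activate the urokinase precursor, had 52.4, 52.9 and 55.4 FPKM with miR-204-5p mimics against 82.9, 80.4 and 82.5 with control mimics (log2 fold change -0.61, adjusted p = 0.000102, limma). Among sheddases, activators and partners 4 of 10 were lower and 4 higher, against 16.8% and 23.9% of all genes. FURIN, which removes the propeptide of MMP14, was lower (21.7 ± 1.80 to 15.4 ± 0.695 FPKM, SD over n = 3, log2 fold change -0.47, adjusted p = 0.00236, limma), as were ADAM17 (-0.39, adjusted p = 0.00130, limma), ADAM10 (-0.25, adjusted p = 0.0147, limma) and CD44 (-0.43, adjusted p = 0.0118, limma). ADAM17 and ADAM10 release surface proteins, and CD44 is a hyaluronan receptor that can hold MMP9. The higher genes were ADAM8 (2.52 ± 0.198 to 6.13 ± 0.614 FPKM, SD over n = 3, log2 fold change 1.02, adjusted p = 0.000301, limma), ADAM9 (0.39), ADAM15 (0.24) and LCN2, whose protein forms a complex with MMP9 (0.50, adjusted p = 0.00126, limma).

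**Figure D4:**
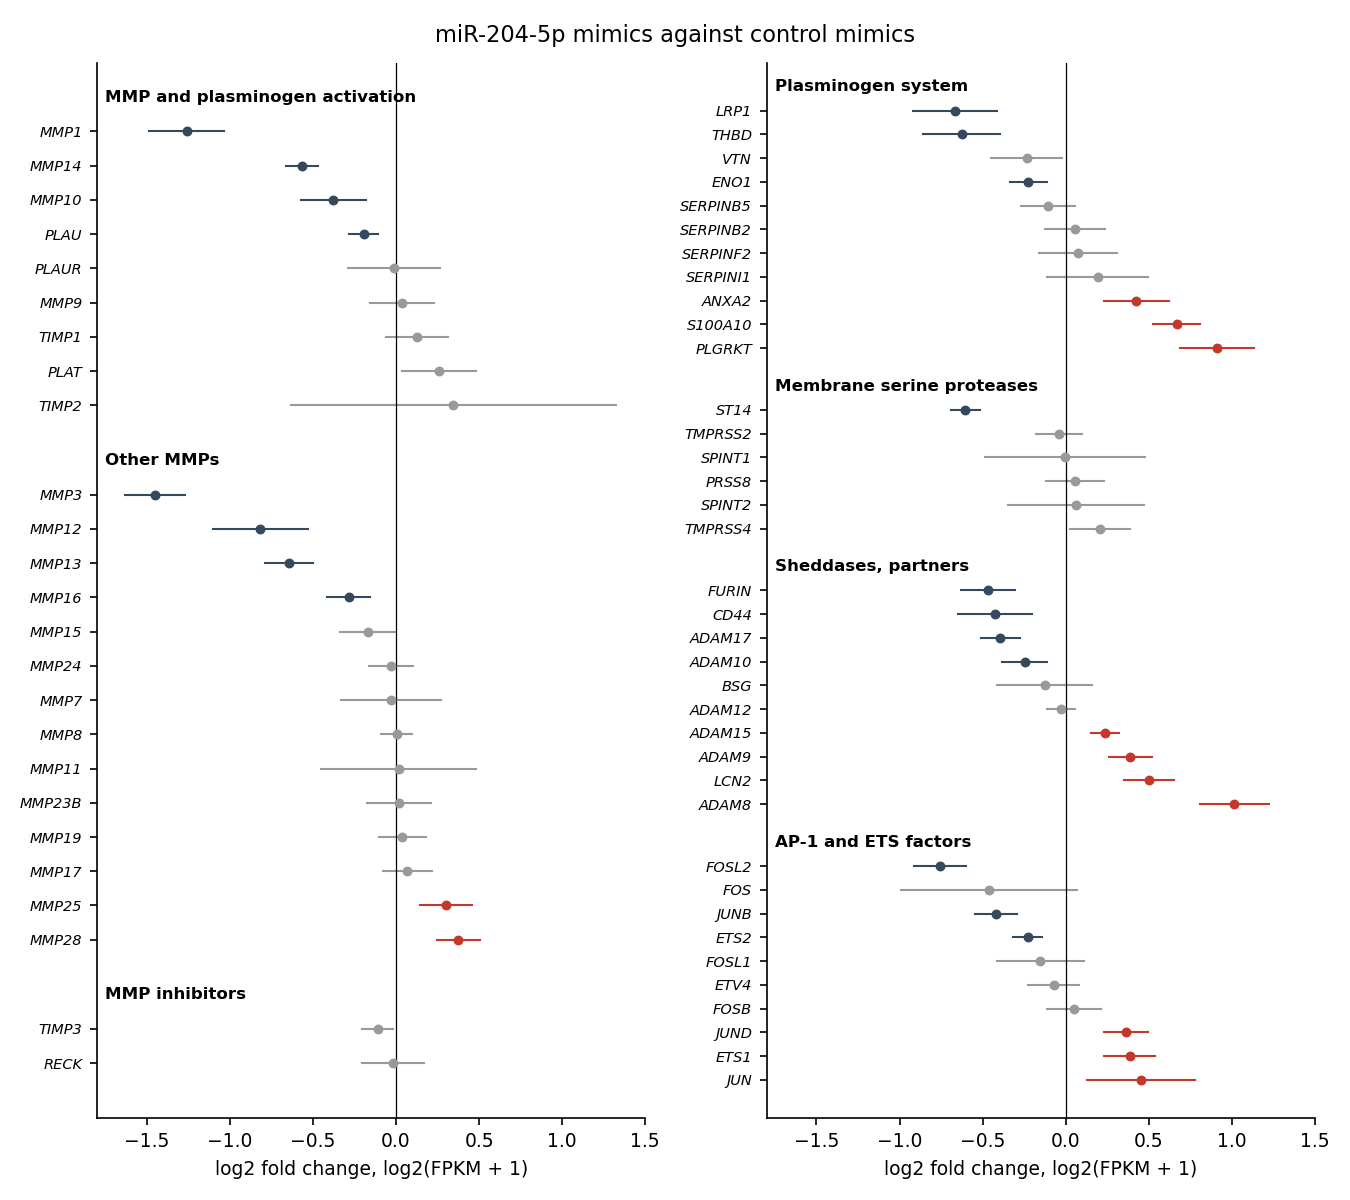
Log2 fold change (miR-204-5p mimics minus control mimics, log2(FPKM + 1) scale) with its 95% interval from limma for the 9 genes and other measured genes of the list, grouped by role. Blue genes were called lower, red genes higher and grey genes not called. MMP3 at -1.45 and MMP1 at -1.26 lie lowest, and ADAM8 at 1.02 and PLGRKT at 0.91 highest.

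AP-1, a dimer of FOS and JUN family proteins, is a known activator of several of these genes. The pattern TGANTCA, with any base at N, was searched for as a loose form of its motif. Of 10 AP-1 and ETS factors, 3 were lower and 3 higher, against 16.8% and 23.9% of all genes. FOSL2 fell from 41.0 ± 3.24 to 23.8 ± 0.973 FPKM (SD over n = 3, log2 fold change -0.76, adjusted p = 0.000322, limma) and JUNB from 96.2 ± 4.50 to 71.6 ± 3.61 (log2 fold change -0.42, adjusted p = 0.00132, limma), with ETS2 lower by less (-0.23). JUND (0.36), ETS1 (0.39) and JUN (0.45, adjusted p = 0.0370, limma) were higher, but JUN lost its call under 6 of 11 alternatives, with an adjusted p up to 0.105 in limma. The RefSeq promoter table, 250 bases before to 50 after each gene's start, held 5 of the 9 genes, and MMP1, MMP9, PLAT and TIMP2 had no entry. TGANTCA, which reads the same on both strands, was found in 2 of the 5 promoters, MMP10 and PLAUR, and in 5.62% of the promoters of genes in the table. The windows below are on the minus strands of chromosome 11 from 102780678 to 102780706 and chromosome 19 from 43670338 to 43670366 (GRCh38.p14), with the motif in capitals, and are shown because they set a gene that was lower beside one that was not called.
MMP10: aaacacatgcaTGAATCAtactgttggtg
PLAUR: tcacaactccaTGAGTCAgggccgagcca

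The motif begins 67 bases before the start of MMP10 and 186 bases before that of PLAUR. The base at N is A in MMP10 and G in PLAUR, and both forms were counted alike. A match is only a description of letters in this window. FOSL2 and CD44 each hold a 7mer-m8 to miR-204-5p in the 3'UTR, both on plus strands, at 28416330 to 28416336 of chromosome 2 in exon 4 and at 35230634 to 35230640 of chromosome 11 in exon 9. They are the genes of these lists, beside MMP3, MMP13, MMP16 and ADAM10, that were lower and hold a match of at least 7 bases. In the list of 67 14 genes held such a match, of which 6 were called lower and 0 higher. Of the 3974 genes of the table with such a match, 27.0% were called lower and 16.4% higher.
FOSL2: gggttatgggAAAGGGAgggggagaag
CD44: tcaaaaggttAAAGGGAttcccatcat

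The genes whose FPKM followed MMP1 most closely over the 6 libraries, among 11504 genes with a mean of at least 1 FPKM, were TRIP6, TRANK1 and PPP1CC, each with a Pearson r of 0.999 in log2(FPKM + 1). All 3 were lower with miR-204-5p mimics, with log2 fold changes of -0.12, -0.59 and -0.47. The 6 points fall into the 2 groups, so these correlations mostly restate the group difference and are given as a description.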

How the data were processed

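RNA-seq libraries (Illumina) of UM-SCC1 cells were compared as 3 libraries with miR-204-5p mimics against 3 with control mimics. The FPKM values were computed by the authors, whose processing notes name HISAT2, StringTie and hg38 with no versions, and counts were not analysed here. The authors' fold changes and p-values are in the same table and were not used. The deposited transcript length (other unit, bases) was compared with FPKM: a length was taken to fit when FPKM times length was a whole number of millionths within 0.02 in all 6 libraries. Depth was inferred from 1175 genes with 1 transcript in GENCODE 29, where the share of low values at whole multiples of the step (within 0.01 of a step) was 28.6% to 36.7% against 1.28% to 1.48% at the median of other steps. The counts so given are approximate, and whole reads were not recovered for all genes.

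The study's methods name a test for counts, so instead log2(FPKM + 1) was tested with limma (version 3.58.1, under R 4.3.3) by its moderated test with a mean-variance trend, no filter, two-sided, with Benjamini-Hochberg adjustment over all 14959 genes at 0.05. The script was tested on simulated data. P-values rest on the spread between 3 experiments per group in 1 line. Sequences were read from GENCODE 29 transcripts and RefSeq tables with Python 3.11.15. The 9 genes were given by name. From the list of 67 others, genes were named if called with a mean of at least 1 FPKM, or if among SERPINB2, MMP2, MMP3, MMP12, MMP13, TIMP3, PLG and RECK. One further gene of the list, with its ratios, is not reported here. MMP7, MMP8 and the neighbours of MMP1 were named after their values were seen, as were the marker genes given by value. The members, lists and tests were chosen with earlier results of these data known.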

Additional observations from a re-analysis of the deposited data

How the results depend on the processing

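The settings tried were 0.1 as pseudocount, a minimum mean of 1 FPKM (MMP9, MMP10, MMP13 and SERPINB2 then have no value), the replicate number as a block, scaling to equal medians, quantile normalization and leaving out each library. MMP1, MMP14 and PLAU were called lower under all 11 alternatives, and MMP10 under the 10 that could test it. The number of the 9 genes called higher was 0, and 0 to 1 with a library left out. MMP9 turned to -0.0065 and SERPINB2 to -0.0061 with quantile normalization. With a library left out, MMP9 ran from -0.0467 (without miR-204-5p mimics replicate 2) to 0.0868, PLAUR from -0.0839 to 0.104 (above 0 without miR-204-5p mimics replicate 3 or control mimics replicate 1) and RECK from -0.0486 to 0.0425 (above 0 without miR-204-5p mimics replicate 2 or control mimics replicate 1). None of these was called. The cause of these changes was not tested. The log2 ratio difference of MMP9 to TIMP1 ran from -0.29 to 0.22 with a library left out, taking both signs. Same-numbered libraries did not deviate together (correlations -0.04, -0.02 and -0.11), so the numbers do not pair the samples. With the replicate block 5096 genes of the table were called in place of 6098, and 4 of the 9 genes were lower, as without it. Of the named genes ADAM10 lost its call with the block (adjusted p = 0.0550, limma). Alternatives that need counts were not run. Low fragment numbers limit MMP9 and MMP10.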
